A study of Mus musculus with 18 samples.

Results

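The genes described here are 10 members of the mammalian circadian clock, Arntl, Clock, Per1, Per2, Per3, Cry1, Cry2, Nr1d1, Nr1d2 and Dbp, followed through 18 RNA sequencing libraries of mpkCCD cells. They were chosen by their symbols, with no measured value in the choice, and all 10 were found among the 24111 genes of the count table and in the FPKM table. The mpkCCD line is an immortalised mouse line of the cortical collecting duct, the kidney segment in which vasopressin sets water reabsorption; the labels name mpkCCD11 cells and do not give passage or separate origins for the libraries. Cells were grown to a tight monolayer on permeable supports in medium with 2% serum, insulin, dexamethasone and other supplements. Both groups then spent 24 h without serum, followed by a further 24 h in serum-free medium with 0.1 nM dDAVP, a vasopressin analogue selective for the V2 receptor (9 libraries), or with none (9 libraries).

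The clock is a feedback loop of transcription. The proteins of Arntl (BMAL1) and Clock pair on DNA at E-boxes and switch on the Per and Cry genes, whose proteins gather over hours and shut the pair down; in a second loop, the nuclear receptors encoded by Nr1d1 and Nr1d2 (REV-ERB alpha and beta) repress Arntl, and Dbp, itself an E-box gene, carries the rhythm to output genes through D-boxes. In an intact rhythm, Dbp, Nr1d1 and the Per genes peak at a different phase from Arntl. Collecting duct cells hold a working clock, Per1 is known there as a regulator of the sodium channel subunit Scnn1a, and both serum and glucocorticoid can reset the clock of cultured cells. The hour of harvest is not given in the sources used here, so each value is a single reading at an unstated phase.

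The upstream sequences of Per1, Per3 and Cry1 are shown because they held the E-box or D-box letters through which the loop is known to run. RefSeq promoter sequences on GRCm38.p6 were matched for 9 of the 10 genes, in 13 windows that each covered 250 bases before an annotated start. The sequences read 5′ to 3′ along the gene's own strand, and capitals mark the motifs found on either strand.
Per1, first start, chr11:69098699-69098948, plus strand: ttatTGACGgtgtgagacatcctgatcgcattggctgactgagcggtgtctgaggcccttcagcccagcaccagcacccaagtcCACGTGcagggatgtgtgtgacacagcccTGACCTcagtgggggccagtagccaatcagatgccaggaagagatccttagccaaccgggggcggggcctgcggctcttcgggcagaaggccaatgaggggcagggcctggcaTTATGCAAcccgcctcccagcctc
Per1, second start, chr11:69099902-69100151, plus strand: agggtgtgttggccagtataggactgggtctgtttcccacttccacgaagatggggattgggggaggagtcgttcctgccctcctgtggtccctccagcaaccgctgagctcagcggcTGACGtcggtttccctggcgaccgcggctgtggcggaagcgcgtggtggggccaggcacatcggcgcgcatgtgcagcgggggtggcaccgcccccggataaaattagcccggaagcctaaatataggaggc
Per3, chr4:151044666-151044915, minus strand: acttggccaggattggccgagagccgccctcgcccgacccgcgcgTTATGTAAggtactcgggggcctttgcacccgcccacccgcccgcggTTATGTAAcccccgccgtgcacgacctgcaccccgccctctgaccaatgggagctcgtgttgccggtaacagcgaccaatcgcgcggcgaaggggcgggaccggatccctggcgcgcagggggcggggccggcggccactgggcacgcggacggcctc
Cry1, chr10:85185055-85185304, minus strand: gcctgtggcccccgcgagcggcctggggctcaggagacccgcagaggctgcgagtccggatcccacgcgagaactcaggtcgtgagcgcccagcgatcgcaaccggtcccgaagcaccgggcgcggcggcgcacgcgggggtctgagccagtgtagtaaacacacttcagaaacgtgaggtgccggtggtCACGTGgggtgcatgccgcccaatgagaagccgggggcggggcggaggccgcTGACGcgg
The E-box CACGTG lay 166 bases before the first Per1 start and 60 bases before the Cry1 start, and 6.02% of all 32851 windows held it. Per3 held the D-box TTATGTAA at 205 and 158 bases before its start, against 0.819% of all windows with any match. The other D-box form, TTATGCAA, lay 24 bases before the first Per1 start and was held by 0.694% of all windows. The core AGGTCA, which REV-ERB receptors can bind, was found in windows of Clock, Nr1d2 and Per1 and in 14% of all windows; TGACCT is the same motif on the other strand. The full cAMP response element TGACGTCA was in none of the 13 windows and in 1.55% of all windows, while its core TGACG, which lies within the full element, was found for Cry1, Cry2 and Per1 and in 17.8% of all windows. A match is a description of the letters and was not tested as a binding site.

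The libraries held between 22.2 and 105.9 M counted reads. Replicate numbers 1 to 3, 4 to 6 and 7 to 9 form 3 sets of 6 libraries each, and 7898 of the 10121 genes tested, 78.0%, differed between the sets (edgeR quasi-likelihood test, adjusted p under 0.05). The labels do not say what separates the sets, and set cannot be told apart from whatever was done together within it. The dDAVP library of replicate 6 stood apart with a scaling factor of 0.31, the lowest of a range that reached 3.16. In replicates 7 to 9 the factors divided across the treatment labels. They were 2.32, 3.16 and 2.75 in control replicate 7 and dDAVP replicates 8 and 9. In control replicates 8 and 9 and dDAVP replicate 7 they were 1.34, 1.15 and 1.30. The part of this division in the fold changes of that set was not tested. Aqp2, the water channel induced by vasopressin, rose with dDAVP by 4.63 (SE 0.72) on the log2 scale with the set as a term (edgeR, adjusted p = 0.00504), and its ranges in the groups were apart in replicates 1 to 3 and 4 to 6 and overlapped in replicates 7 to 9. Principal cell markers had at least 1 read for 12 or 13 of 13 genes in each set and group. Some were near the floor: Elf5 had 1 read in all 18 libraries, and Aqp3, Scnn1g and Scnn1b had mean levels of 0.85, 1.19 and 2.83 CPM. Summed levels lay between 1184 and 19528 normalised CPM (CPM of the TMM-scaled library total). They were highest in replicates 1 to 3, at 8597 to 19528, and lowest in replicates 4 to 6, at 1184 to 2369. The sum was carried by the keratins Krt18 and Krt8, with mean levels of 4608 and 1573 CPM, and other markers differed the other way between these sets: in replicates 4 to 6 against 1 to 3 the log2 difference was -4.19 for Krt18 but 4.07 for Gata3, 3.93 for Hsd11b2 and 2.36 for Scnn1g. Summed intercalated cell markers, mostly Car2, were at 13.8 to 20.3 CPM in controls and 23.4 to 38.8 with dDAVP in replicates 1 to 3. They were at 37.8 to 50.0 and 28.7 to 71.6 in replicates 4 to 6, and at 5.12 to 19.0 and 19.4 to 27.4 in replicates 7 to 9. In replicates 1 to 3 the log2 fold change of Car2 was 0.24 (SE 0.38). Those of Atp6v1b1, Aqp6 and Atp6v0a4 were 3.06 (SE 0.77), 2.16 (SE 0.50) and 1.46 (SE 0.33), and edgeR called none of these. Proximal tubule markers were at 6.16 to 8.21 CPM in controls and 2.76 to 5.19 with dDAVP in replicates 1 to 3 and overlapped in the other sets. Thick ascending limb and distal tubule markers reached 45.6 CPM in a dDAVP library of replicates 1 to 3 and at most 1.32 in any other set, and leukocyte markers, nearly all Cd68, reached 13.8. The part of these differences in the clock gene results was not tested. Summed fibroblast markers reached at most 1.08 CPM and endothelial markers 0.12 CPM, and Pecam1, Cdh5, Kdr and Pdgfra had 0 counts throughout. Nothing in the labels says that the replicates were separate cultures, so the p-values measure the spread between these libraries, which may be technical. In bulk RNA, fewer cells with a transcript and less of it per cell cannot be told apart.

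Levels of different genes were compared in FPKM, which accounts for transcript length, and the order of the members differed from set to set. In the control libraries of replicates 1 to 3, Nr1d2 had the highest median at 4.37 FPKM, followed by Cry1 at 3.08 and Dbp at 1.20. The transcripts of Arntl, at 0.0914, and Clock, at 0.0732, had the lowest medians of the 10 members in these libraries. Protein was not measured. Nr1d2 and Cry1 overlapped in range, as did Nr1d1 with Cry2, Per2 with Per3 and Per1 with Arntl; the other neighbours in the order had ranges apart. In the control libraries of replicates 4 to 6, every neighbour overlapped, from Cry1 at a median of 1.73 FPKM to Clock at 0.353. In the control libraries of replicates 7 to 9, Nr1d1 came first at a median of 19.5 FPKM and Clock last at 0.0365, and again every neighbour overlapped. With dDAVP the highest median belonged to Dbp in replicates 1 to 3 (3.09 FPKM), to Cry1 in replicates 4 to 6 (2.47) and to Cry2 in replicates 7 to 9 (12.0).

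**Figure D1:**
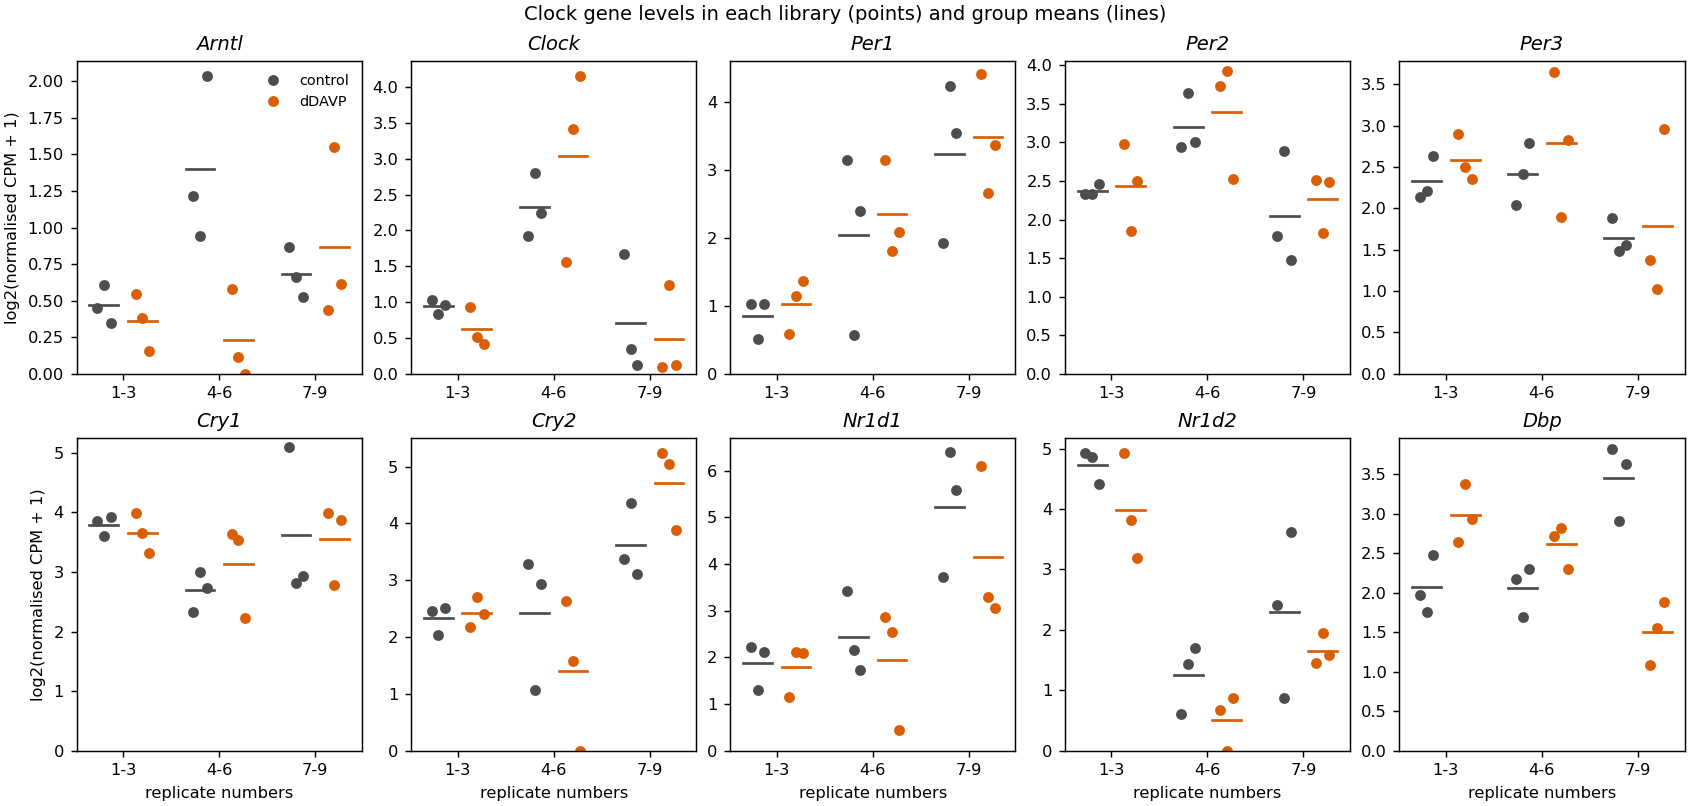
Levels of the 10 clock genes in each of the 18 libraries as log2(normalised CPM + 1), by set of replicate numbers, with control and dDAVP libraries side by side; each point is 1 library and each line the mean of its group in that set. Points of the groups are mixed for most genes, Dbp in replicates 7 to 9 is lower in all 3 dDAVP libraries, and Nr1d2 is high in replicates 1 to 3.

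No clock gene passed the test for a dDAVP effect over all 18 libraries. With the set as a term, 0 of 10 members were called (edgeR, adjusted p under 0.05), against 0.0790% of all genes tested, which was 8 genes, all higher with dDAVP. At an unadjusted p under 0.05 there was 1 member, Nr1d2, where 6.03% of all genes passed, and DESeq2, limma on FPKM and limma voom with sample quality weights each called 0 members. Estimates were positive for 5 members and negative for 5, with a median log2 fold change of -0.03 against 0.02 over all genes. Without the set term edgeR called 0 members and 0% of all genes; 0 members and 2.15% of genes had an unadjusted p under 0.05, and DESeq2 called 0 members. On simulated counts with known changes, the model with the set term recovered 58% of 4-fold changes and 5.48% of 2-fold changes. A 2-fold change would thus mostly not have been detectable at this spread. The changed genes were drawn from all levels and were more than the 8 called here. Recovery at the members' own levels was therefore not measured and may have been lower.

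The activators come first. Arntl had 0 to 406 counts per library. Its normalised CPM in control replicates 1 to 9 were 0.366, 0.526, 0.270, 1.32, 0.918, 3.10, 0.822, 0.580 and 0.436. In dDAVP replicates 1 to 9 they were 0.457, 0.302, 0.113, 0.496, 0.0807, 0 and then 0.355, 1.93 and 0.533. The groups overlapped except in replicates 4 to 6, where the 3 dDAVP libraries (11, 3 and 0 counts) all lay below the 3 controls (20, 38 and 105 counts). The log2 fold change there was -3.18 (SE 1.53, 95% interval -6.49 to 0.14; edgeR adjusted p = 0.999), and over all libraries it was -0.86 (SE 0.74, interval -2.39 to 0.68). For the library at 0, a floor of 3 counts allows a level of up to 0.359 CPM. The same library has the scaling factor of 0.31; without it the estimate in replicates 4 to 6 was -2.72, and over all libraries -0.54.

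Clock, the partner of Arntl, had 6 to 360 counts. Its control values were 1.04, 0.790 and 0.945 CPM in replicates 1 to 3, 2.78, 5.97 and 3.72 in replicates 4 to 6, and 2.17, 0.266 and 0.0844 in replicates 7 to 9. The dDAVP values in the same order were 0.914, 0.423 and 0.338, then 1.94, 9.69 and 16.9, then 0.0652, 1.35 and 0.0897. Libraries of replicates 4 to 6 were the high ones in both groups, and the groups overlapped in each set. The dDAVP estimate was -0.09 (SE 0.67, interval -1.48 to 1.30), which leaves changes of more than 2-fold in either direction within the interval. Its sign turned to 0.39 when replicates 7 to 9 were left out and to 0.82 (SE 0.95) without the set term.

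Of the repressors, the 3 Per genes had positive estimates in each set and none passed the test. Each of these estimates by set lay within 1 SE of 0. The share of all genes that kept their sign over the 3 sets was not counted. Per1, the member of the family that answers fastest to hormones and cAMP in many cells, ranged from 0.421 to 17.7 CPM in controls and from 0.503 to 20.1 with dDAVP. By library, its controls were 1.04, 0.421 and 1.03, then 7.81, 0.483 and 4.26, then 2.80, 17.7 and 10.6 CPM. Its dDAVP libraries were 0.503, 1.21 and 1.58, then 7.81, 2.50 and 3.23, then 20.1, 5.33 and 9.32 CPM. The groups overlapped in every set, and libraries of 1 group spread widely, as the controls of replicates 4 to 6 show. The log2 fold changes were 0.29 (SE 0.48), 0.12 (SE 1.01) and 0.13 (SE 0.84) in the successive sets and 0.22 (SE 0.48, interval -0.78 to 1.22) over all libraries.

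Per2, a core repressor, was at 1.79 to 11.5 CPM in controls, with a median of 4.50, and at 2.54 to 14.3 with dDAVP, with a median of 4.71. Its estimates by set were 0.14, 0.21 and 0.13, and over all libraries 0.21 (SE 0.36, interval -0.52 to 0.95). Per3, the member least needed for the rhythm, was at 1.80 to 5.94 CPM in controls (median 3.42) and 1.03 to 11.6 with dDAVP (median 4.65). Its estimates were 0.28, 0.53 and 0.45, and 0.49 over all libraries (SE 0.41, interval -0.35 to 1.33). Both groups of each gene overlapped in all 3 sets.

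The cryptochromes, which bind and silence the activator pair, showed no common direction. Cry1 was at 4.04 to 33.4 CPM in controls and 3.71 to 14.8 with dDAVP, and its overall estimate was 0.02 (SE 0.37, interval -0.75 to 0.79). Its sign was not fixed: with library totals alone it was -0.0398. Cry2 controls were 4.52, 3.11 and 4.68, then 8.74, 1.09 and 6.65, then 9.32, 19.4 and 7.68 CPM. Cry2 dDAVP libraries were 3.52, 5.55 and 4.28, then 5.23, 1.99 and 0, then 36.8, 31.8 and 13.7 CPM. The dDAVP libraries of replicates 7 to 9 were the highest of their group, while the controls of that set overlapped those of replicates 4 to 6, and the single dDAVP value at 0 was again replicate 6, with a floor of 0.359 CPM. The Cry2 estimates were 0.05, -1.21 (SE 1.27) and 1.18 (SE 0.73) by set and 0.06 (SE 0.55, interval -1.08 to 1.20) over all libraries, or 0.66 (SE 0.75) without the set term.

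Nr1d2, which encodes REV-ERB beta, had the largest overall estimate in size, and it was negative in all 3 sets. Its controls were 29.4, 28.0 and 20.4, then 0.530, 1.69 and 2.25, then 4.31, 0.836 and 11.3 CPM. Its dDAVP libraries were 29.5, 13.2 and 8.10, then 0.587, 0 and 0.837, then 1.72, 2.84 and 2.00 CPM. Within each set the ranges overlapped, and in replicates 1 to 3 the first dDAVP library was as high as the highest control. For the library at 0, dDAVP replicate 5, the floor was 0.0807 CPM. The log2 fold changes were -0.62 (SE 0.45), -1.75 (SE 1.60) and -1.39 (SE 1.02) by set, and -1.21 overall (SE 0.54, interval -2.32 to -0.11; unadjusted p = 0.0331, edgeR adjusted p = 0.815). When dDAVP replicate 1 was left out, Nr1d2 passed the test within replicates 1 to 3 at -1.42 (edgeR adjusted p = 0.0260), in a fit that called 774 of 9311 genes. Over the 6 fits that each left out 1 library of that set, the estimate ran from -1.42 to -0.26 and the edgeR adjusted p from 0.0260 to 0.964.

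Nr1d1, which encodes REV-ERB alpha, had a negative estimate of -0.43 (SE 0.51, interval -1.48 to 0.62) over all libraries and -0.21, -0.48 and -0.78 by set. Its controls were 3.66, 1.47 and 3.33, then 9.73, 3.45 and 2.31, then 12.1, 83.6 and 46.7 CPM. With dDAVP it was at 1.23, 3.32 and 3.26, then 6.32, 4.79 and 0.359, then 67.9, 8.88 and 7.27 CPM. The ranges overlapped in each set, and in replicates 7 to 9 the single high dDAVP library lay between the upper controls. In that set the low values were those of control replicate 7 and dDAVP replicates 8 and 9, the libraries with the higher scaling factors. The exons of Nr1d1 overlap those of Thra on the other strand by 263 bases. With the strand setting of the counting not stated, shared reads cannot be assigned, and Thra itself had dDAVP estimates of -0.43, 0.29 and -0.05 by set.

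**Figure D2:**
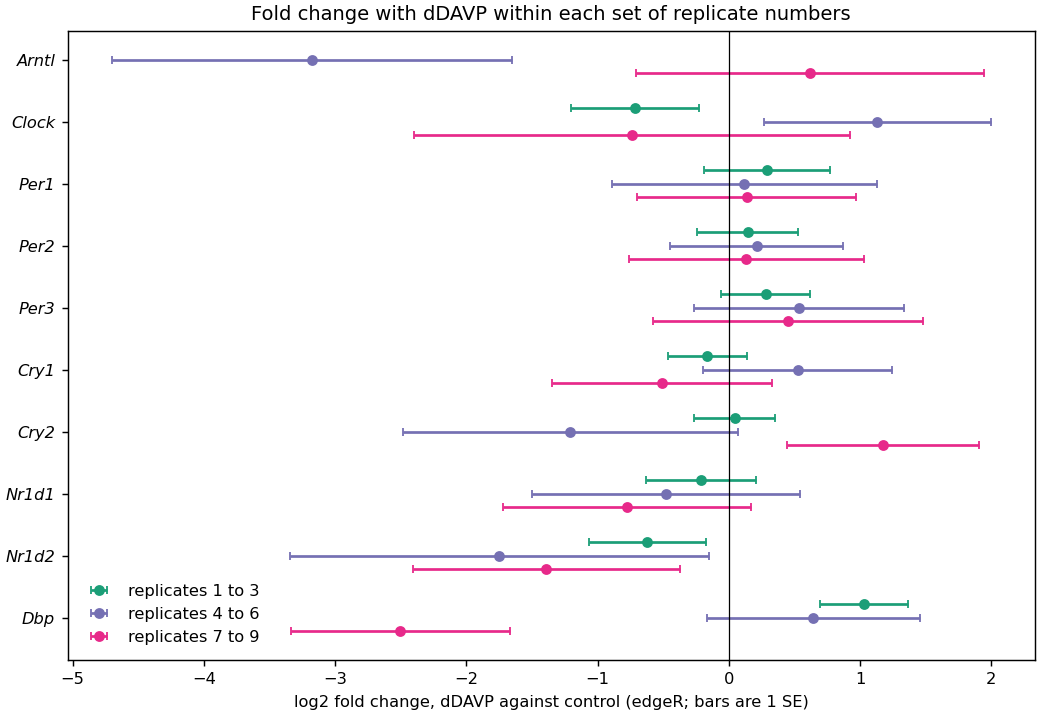
Log2 fold change of dDAVP over control for each clock gene in replicates 1 to 3, 4 to 6 and 7 to 9, with bars of 1 SE of the edgeR estimate; Arntl has no value in replicates 1 to 3, where it failed the count filter. Per1, Per2 and Per3 lie above 0 and Nr1d1 and Nr1d2 below 0 in every set shown. None of these was called, and their bars cross 0 except for those of Nr1d2. Dbp lies at 1.03, 0.64 and -2.50.

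Within the sets, the members again gave no call. In replicates 1 to 3, 9 members passed the count filter and 0 were called, against 0.456% of all genes (41 genes, with 0.378% called higher and 0.0779% lower). At an unadjusted p under 0.05 there was 1 member, Dbp, and 10.5% of all genes, and DESeq2 called 0 members. In replicates 4 to 6, 10 members were tested and 0 called, with 0% of all genes called. There, 0 members and 4.61% of genes had an unadjusted p under 0.05, and DESeq2 called 0 members. In replicates 7 to 9, 10 were tested and 0 called, with 0% of all genes called. Dbp was the 1 member with an unadjusted p under 0.05, where 5.19% of all genes passed, and DESeq2 called 0 members. On simulated counts with changed genes drawn in the same way, 79.4% of 4-fold changes were recovered in replicates 1 to 3. The share was 8.4% in replicates 4 to 6 and 0.763% in replicates 7 to 9. As simulated, the later sets would therefore have shown few changes of that size. Simulated counts were drawn for each gene separately around 1 level per set, scaled by each library's factor. A division of the libraries across the treatment labels beyond those factors was not simulated. Recovery at the members' own levels was not measured here either.

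Dbp, the PAR bZIP factor that carries clock output to D-box genes, was the member whose dDAVP and control ranges were apart in opposite directions in different sets. Estimates of Arntl, Clock, Cry1 and Cry2 also changed sign between sets, with ranges that overlapped except for Arntl in replicates 4 to 6. In replicates 1 to 3 its controls were 2.93, 2.37 and 4.59 CPM and its dDAVP libraries 5.25, 9.42 and 6.64 CPM. In replicates 4 to 6 the controls were 3.51, 2.25 and 3.93 CPM and the dDAVP libraries 5.60, 6.06 and 3.95 CPM. In replicates 7 to 9 the controls were 13.2, 6.55 and 11.4 CPM and the dDAVP libraries 1.12, 1.93 and 2.69 CPM. All dDAVP libraries were thus above all controls in both earlier sets and below all controls in the last set. In replicates 4 to 6 the margin was no more than 3.95 against 3.93. The 3.95 belonged to dDAVP replicate 6, with 33 counts and the scaling factor of 0.31. By library totals alone that library was at 1.21 CPM, below the controls of its set at 1.92 to 3.64. Behind these values were 33 to 1266 counts per library. In replicates 1 to 3, Dbp was the 1 member with its dDAVP range above the controls, against 7.11% of all genes, and 0 members lay below, against 6.93%. In replicates 4 to 6, Dbp was the 1 member above, against 5.28% of all genes, and Arntl the 1 below, against 4.44%. Above the controls in replicates 7 to 9 lay 0 members, against 4.58%, and Dbp was the 1 below, against 4.05%. Ranges apart in opposite directions in some pair of sets were found for 1.43% of all genes. With TMM scaling, the whole pattern of Dbp was found for 4 genes, 0.0395%, counting Dbp itself, whose place there rests on the scaling of dDAVP replicate 6. That pattern was read from the Dbp values, so its share is a description and not a test.

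The log2 fold changes of Dbp were 1.03 (SE 0.34, interval 0.30 to 1.76; edgeR adjusted p = 0.329) in replicates 1 to 3, 0.64 (SE 0.81; edgeR adjusted p = 0.999) in replicates 4 to 6 and -2.50 (SE 0.83, interval -4.29 to -0.71; edgeR adjusted p = 0.874) in replicates 7 to 9. The unadjusted p was 0.00975 in the first set and 0.00977 in the last. Pooled with the set as a term, the estimate was -0.12 (SE 0.52, interval -1.20 to 0.96), and without replicates 7 to 9 the value was 0.91 (edgeR adjusted p = 0.718).

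The difference of the dDAVP effect between the sets was then tested itself. For Dbp the interaction had an unadjusted p of 0.000933 and an adjusted p of 0.405 by edgeR, while the likelihood ratio test of DESeq2 gave an adjusted p of 0.00182. By edgeR 0 of 10 members and 0% of all genes were called; Dbp was the 1 member with an unadjusted p under 0.05, as 6.63% of all genes had. By DESeq2 Dbp was the 1 member called, against 0.899% of all genes (91 genes). The call for Dbp therefore rested on the tool: leaving out each replicate number in turn, the edgeR adjusted p ran from 0.0611 to 0.999.

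The scaling of the libraries mattered for the middle set. Scaled by library totals alone, Dbp ranges in replicates 4 to 6 overlapped, at 1.92 to 3.64 CPM in controls and 1.21 to 5.95 with dDAVP, while those of the other sets stayed apart in the same directions. With size factors of the DESeq2 type the ranges were apart in all 3 sets. Dbp exons overlap those of Sphk2 on the other strand by 539 bases. Sphk2 had an estimate of 0.75 (SE 0.32, interval 0.06 to 1.44, unadjusted p = 0.0357, edgeR adjusted p = 0.440) in replicates 1 to 3. In replicates 4 to 6 and 7 to 9 its estimates were -0.55 (SE 0.73) and -0.57 (SE 0.83). The signs in the first and last sets were those of Dbp. Sphk2 had 37 to 14370 counts per library, and its share of the Dbp counts was not tested.

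Dbp and Arntl stand on opposite arms of the loop, so their ratio within a library, which no scaling between libraries can move, was also read. In FPKM, the ratio was 7.41 to 28.0 in the controls and 18.9 to 97.1 in the dDAVP libraries of replicates 1 to 3, which overlapped. In replicates 4 to 6 it was 2.08 to 4.36 in the controls and 18.6 and 123 in the dDAVP libraries with a ratio, since Arntl was listed at 0 in the third. In replicates 7 to 9 it was 18.6 to 43.1 in the controls and 1.65 to 8.29 with dDAVP. The ratio was thus higher with dDAVP in the middle set and lower in the last, with no overlap in either, and it was not tested. It is built from the same Dbp and Arntl values, whose ranges were already apart in replicates 4 to 6, and is no separate support. The Arntl counts behind the ratios of dDAVP replicates 4 and 5 were 11 and 3.

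**Figure D3:**
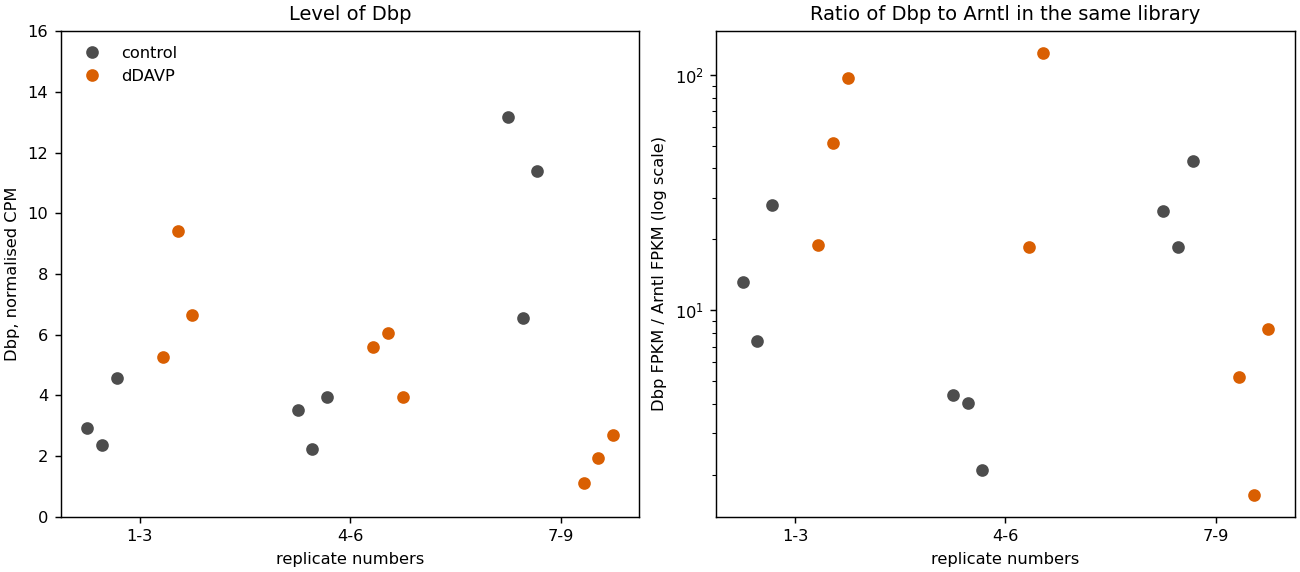
Dbp in normalised CPM (left) and the ratio of Dbp to Arntl FPKM in the same library (right, log scale) by set of replicate numbers; each point is 1 library, and dDAVP replicate 6 has no ratio because Arntl was listed at 0. In replicates 7 to 9 the controls lie at 6.55 to 13.2 CPM and the dDAVP libraries at 1.12 to 2.69 CPM, the reverse of the order in replicates 1 to 3.

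Levels of the clock genes were then compared between the sets, over both groups with treatment as a term and not within each group. Of the 10 members, 6 differed between sets in the edgeR F test with treatment as a term, against 78.0% of all genes, so the members' share was not above the background. These were Per1 (adjusted p = 1.62e-04), Per2 (0.0155), Cry2 (0.00323), Clock (8.15e-04), Nr1d1 (2.11e-05) and Nr1d2 (1.16e-05), all by edgeR. Arntl (0.272), Dbp (0.739), Cry1 (0.150) and Per3 (0.127) did not pass. For Dbp that test averages opposite shifts: from replicates 1 to 3 to replicates 7 to 9 its control libraries went from 2.37 to 4.59 CPM up to 6.55 to 13.2, and its dDAVP libraries from 5.25 to 9.42 CPM down to 1.12 to 2.69. Between replicates 4 to 6 and 1 to 3, edgeR called 4 of 10 members against 55.9% of all genes. Between replicates 7 to 9 and 1 to 3 it called 4 of 10 against 63.7%, and between replicates 7 to 9 and 4 to 6 it called 5 of 10 against 48.2%. With library totals alone, Per2 no longer passed and Cry1, Arntl and Dbp did, so for these 4 the call depended on the scaling.

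The members of the REV-ERB pair differed in opposite directions between replicates 1 to 3 and 7 to 9. Nr1d2 was lower than in replicates 1 to 3, with a log2 difference of -4.67 (SE 0.74) in replicates 4 to 6 and -2.62 (SE 0.67) in replicates 7 to 9, where edgeR called 21.8% and 24.7% of all genes lower. Nr1d1 was higher in replicates 7 to 9 than in replicates 1 to 3 by 3.75 (SE 0.69) and than in replicates 4 to 6 by 3.04 (SE 0.66), with 39.0% and 28.1% of all genes called higher. Thra, which overlaps Nr1d1, was higher in the same contrasts by 2.34 and 2.37 (edgeR adjusted p = 0.0129 and 0.0166). The 2 receptors bind the same sites and are known to cover for each other. In FPKM, Nr1d1 lay below Nr1d2 in 6 of 6 libraries of replicates 1 to 3, at ratios of 0.0702 to 0.676. It lay above Nr1d2 in 5 of 6 libraries of replicates 4 to 6, the exception being dDAVP replicate 6 at a ratio of 0.719. It lay above in 6 of 6 libraries of replicates 7 to 9, at ratios of 4.73 to 168. The order of the pair therefore turned over between sets in control and dDAVP libraries alike.

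**Figure D4:**
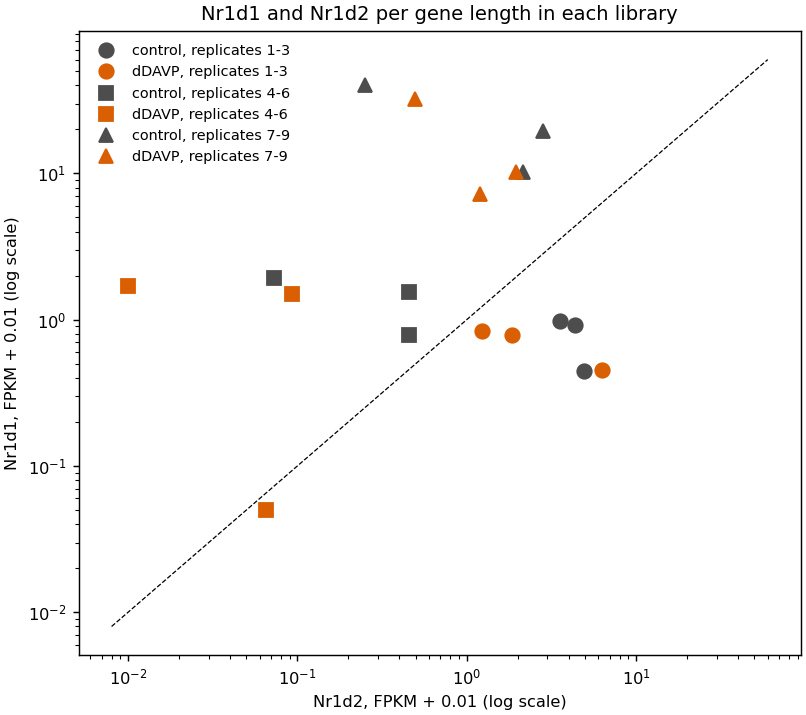
Nr1d1 against Nr1d2 in FPKM + 0.01 (log scales) in the 18 libraries, with colour for treatment, shape for the set of replicate numbers and a dashed line of equal levels; dDAVP replicate 5 has Nr1d2 listed at 0. The 6 libraries of replicates 1 to 3 lie on the Nr1d2 side of the line and the 6 of replicates 7 to 9 on the Nr1d1 side.

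Among the other members, Per1 was higher in replicates 4 to 6 by 2.18 (SE 0.62) and in replicates 7 to 9 by 3.52 (SE 0.65) than in replicates 1 to 3, where edgeR called 34.1% and 39.0% of all genes higher. Its FPKM was below that of Per2 in 6 of 6 libraries of replicates 1 to 3 and above it in 6 of 6 of replicates 7 to 9. Clock was higher in replicates 4 to 6 than in replicates 1 to 3 by 3.22 (SE 0.88) and lower in replicates 7 to 9 than in replicates 4 to 6, with a log2 difference of -3.36 (SE 0.88; 20.1% of all genes were called lower). Cry2 was higher in replicates 7 to 9 than in replicates 1 to 3 by 2.20 (SE 0.67). Each of these contrasts had an edgeR adjusted p under 0.05. Principal cell markers also differed between the sets, in both directions as given above.

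The members also varied more between libraries of one group in the later sets. The median SD of log2(CPM + 1) over the members, within group, was 0.32 in replicates 1 to 3, 0.64 in replicates 4 to 6 and 0.75 in replicates 7 to 9. For the 5407 genes of like level it was 0.27, 0.77 and 0.77, close to the members' values. Nr1d1 had the largest SD in replicates 7 to 9, at 1.54. Dbp had 0.37, 0.30 and 0.44 in the successive sets, above the members' median in replicates 1 to 3. Arntl, at low levels, had 0.17, 0.46 and 0.44.

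Other genes of the clock gave no call over all libraries either. Beside the list counts that follow stand 6.03% of all genes at an unadjusted p under 0.05 and a median log2 fold change of 0.02 over all genes; the lists were not tested against them. Of 11 further clock factors, 6 were tested with the set term and 0 were called by edgeR (2 at an unadjusted p under 0.05), with 5 positive estimates and 1 negative and a median log2 fold change of 0.72. The highest level was that of Bhlhe41, an E-box repressor, with an estimate of 0.10 (SE 0.30). Tef, a PAR bZIP relative of Dbp and singled out after its values were seen, had an estimate of 0.94 (SE 0.28; unadjusted p = 0.00255, edgeR adjusted p = 0.538). Its levels were 5.33 to 20.8 CPM in controls and 15.5 to 38.0 with dDAVP, and its estimates of 0.66, 0.88 and 1.19 by set did not share the turn of Dbp in the last set. Of 21 kinases, ligases and cofactors that act on clock proteins, 20 were tested, with 12 positive and 8 negative estimates, a median of 0.06 and 0 called (3 at an unadjusted p under 0.05). The highest of these were Ppp1ca, a phosphatase subunit, at 0.02 (SE 0.28), and Gsk3b, a kinase of clock proteins, at -0.39 (SE 0.52).

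Of 12 genes known as clock outputs, 10 were tested and edgeR called 0 (3 at an unadjusted p under 0.05), with 6 positive and 4 negative estimates and a median of 0.17. Nampt, of NAD synthesis, was at -0.46 (SE 0.34) and Por, the cytochrome P450 reductase, at 0.15 (SE 0.47). Of 5 genes linked to Per1 in collecting duct cells, 4 were tested and 0 called (0 at an unadjusted p under 0.05), with 1 positive and 3 negative estimates and a median of -0.39. Scnn1a, the alpha subunit of the epithelial sodium channel, was at 15.1 to 102 CPM in controls and 3.71 to 112 with dDAVP, and its estimate was -0.28 (SE 0.31). Scnn1a was at 50.3 to 112 CPM in replicates 7 to 9 over both groups, above every library of the other sets. The list's highest members were Ube2e3, a ubiquitin-conjugating enzyme, at -0.50 (SE 0.30), and Cav1, of caveolae, at 0.48 (SE 0.32).

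Inputs to the clock were read in the same way. Of 11 cAMP and CREB targets, 8 were tested over all libraries and 0 called by edgeR (3 at an unadjusted p under 0.05), with 5 positive and 3 negative estimates and a median of 0.98. Within replicates 1 to 3, Crem, a cAMP-induced repressor of CREB targets, rose by 2.36 (SE 0.43; edgeR adjusted p = 0.0322), from 0.263 to 1.08 CPM in controls to 3.52 to 4.35 with dDAVP. Crem had estimates of 2.4 (SE 0.90) in replicates 4 to 6 and -1.12 (SE 1.12) in replicates 7 to 9, neither called (interaction: unadjusted p = 0.00857, edgeR adjusted p = 0.510). Its sign turned in the last set, but unlike those of Dbp its ranges there overlapped, at 1.28 to 4.16 CPM in controls and 0.514 to 1.97 with dDAVP. Of the 9 targets tested in each of these sets, 6 had positive estimates in replicates 4 to 6 and 3 in replicates 7 to 9. In replicates 1 to 3 Per1, another CREB target, had an estimate of 0.29 (SE 0.48, interval -0.75 to 1.34). Of 7 glucocorticoid targets, 5 were tested over all libraries and 0 called (0 at an unadjusted p under 0.05), with 4 positive and 1 negative estimate and a median of 0.18. Fkbp5, of the glucocorticoid receptor complex, was at 0.36 (SE 0.34) and Errfi1, a feedback inhibitor of EGF receptor signalling, at 0.18 (SE 0.36).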

How the data were processed

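RNA sequencing of 18 libraries (9 control, 9 dDAVP) was analysed. Per the labels' protocols, 20 ng of total RNA was the input and single reads of 50 bases were taken; the labels describe both a low-input kit and a single-cell style protocol. The tools named by the submitters' processing notes are STAR (2.4.0.1), HTSeq and SAMtools, with build mm10; the strand setting is not given in the sources used here. The deposited count table holds whole-number counts per gene, and the authors' deposited FPKM table holds FPKM scaled by each library's counted reads.

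Counts were tested with edgeR 4.0.16 (quasi-likelihood, TMM, filterByExpr, Benjamini-Hochberg over all genes tested, two-sided, adjusted p under 0.05) in R 4.3.3, with set as a term, without it and within each set. Normalised CPM use the TMM-scaled total. FPKM values were tested with limma 3.58.1 on log2(FPKM + 0.1) as an alternative, and DESeq2 1.42.0 was another. The models were tested on simulated data. Gene positions and overlaps came from GENCODE M21 (GRCm38). Figures were drawn with matplotlib 3.10.9 in Python 3.11.15.

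All 10 members are named in every comparison, with Aqp2 and Scnn1a; each other list is named by up to 3 called genes or, with none called, its 2 most abundant, of which 1 is not reported here. The members and lists were chosen with earlier results of these data known. Libraries with the same replicate number deviated together once group means were removed (r from 0.40 to 0.93), but those values still held the set differences. With set means also removed, r ran from -0.71 to 0.43. The values therefore do not show that libraries of the same number were paired beyond their set. No libraries of a group were duplicates by counts (lowest chi-square per degree of freedom 65.9). Floors of 3 counts cover counting error only, since reads carried no molecular identifiers. The other settings were another scaling, totals alone, no filter, DESeq2, the replicate number as a block, FPKM, sample weights and leaving out libraries.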

Additional observations from a re-analysis of the deposited data

Results flagged for a closer look

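Within a group of 9 libraries, 2 of 20 gene and group pairs had a library far from the others by Dixon's test, where chance flags about 1 in 20. Arntl in the dDAVP libraries was highest in replicate 8 at 1.93 normalised CPM, against at most 0.533 in the others. Nr1d1 in the dDAVP libraries was highest in replicate 7 at 67.9 normalised CPM, against at most 8.88 in the others. The 9 libraries pool 3 sets whose levels differ, and this Nr1d1 value lay between control values of its own set, 46.7 and 83.6.

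Dbp was flagged because its dDAVP and control ranges were apart in opposite directions in different sets. Its log2 fold changes were 1.03 in replicates 1 to 3, 0.64 in replicates 4 to 6 and -2.50 in replicates 7 to 9. The difference of the dDAVP effect between sets passed the test by DESeq2 (adjusted p = 0.00182) and missed it by edgeR (adjusted p = 0.405), so it rested on the tool.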

How the results depend on the processing

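No member was called for dDAVP over all libraries under any setting run. The direction of unpassed estimates was less stable. The Cry1 estimate of 0.02 became -0.0190 with DESeq2-type size factors, -0.0398 with library totals, -0.0117 without the count filter, -0.0194 by DESeq2 and -0.0245 with voom sample weights. Dbp became 0.68 with voom sample weights, and without replicates 7 to 9 (a setting added after seeing the data) Dbp was 0.91, Clock 0.39 and Cry2 -0.54. Leaving out each replicate, Clock ran from -0.57 to 0.79, Cry1 from -0.16 to 0.30, Cry2 from -0.23 to 0.39, Dbp from -0.43 to 0.24 and Per1 from -0.0663 to 0.48. Without the set term, Clock was 0.82, Cry1 -0.0863 and Cry2 0.66. The cause of these turns was not tested. Members called went from 0 to 1 for the set difference of the effect by DESeq2 (Dbp). They ran from 0 to 1 within replicates 1 to 3 as libraries were left out (Nr1d2 without dDAVP replicate 1). For levels between sets they ran from 5 to 7 with a replicate left out. Library totals alone moved that call further, with Per2 lost and Cry1, Arntl and Dbp gained.

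Counts over all genes moved more. With the set term, 8 became 5 with library totals, 31 by DESeq2, 4 on FPKM, 118 with voom weights and 3 to 9 with a replicate left out. Without it, 0 became 12 by DESeq2, 2 on FPKM, 11 with voom weights and 0 to 1 with a replicate left out. In replicates 1 to 3, 41 became 27 with totals, 207 with no filter, 123 by DESeq2 and 13 to 774 with a library left out. In replicates 4 to 6, 0 became 1 with totals, 1 with no filter, 29 by DESeq2 and 0 to 2. In replicates 7 to 9, 0 became 7 with totals, 30 with no filter, 93 by DESeq2, 2 on FPKM and 0 to 98. For the set difference of the effect, 0 became 35 with no filter, 91 by DESeq2 and 0 to 610.

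The replicate number as a block changed no member's call; it moved the counts over all genes to 1 with the set term, 1 without it, 101 in replicates 1 to 3 and 3 in replicates 7 to 9. The planned test of members under the count filter was not run over 18 libraries, because all 10 passed. Depth limits Arntl and Clock most, at 0 to 406 and 6 to 360 counts.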
